A study of Mus musculus with 20 samples.

Results

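Livers of fasted mice were examined for 10 genes of the growth hormone, insulin-like growth factor (IGF), insulin and leptin receptor pathways. The genes were Igf1, Igfals, Igfbp1, Igfbp2, Igfbp4, Ghr, Socs2, Lepr, Irs1 and Irs2. They were taken by symbol from a table of read counts for 56748 genes, and each had 1 row.

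Growth hormone acts on hepatocytes through its receptor, JAK2 and STAT5 and drives hepatic production of IGF-1, which circulates bound to IGF binding proteins and to the acid-labile subunit encoded by Igfals. Insulin signals through its receptor and the adaptors IRS1 and IRS2 and holds back FOXO1, a transcription factor that drives Igfbp1 and Irs2 when insulin is low. Leptin is a hormone of adipose tissue; the liver is known for making short and soluble forms of its receptor, Lepr, and fasting raises hepatic Lepr and Igfbp1 while it lowers IGF-1.

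All mice had been fasted for 24 h, so no fed state enters any comparison. Control mice carried floxed Cpt1a, Cpt1b and Cpt2 alleles and are littermates per the series' design text. The labels do not say with which of the other groups they shared litters. The other groups lacked, in the liver, Cpt1a and Cpt1b (Cpt1DKO), Cpt2 (Cpt2KO), Cpt1a, Cpt1b and Cpt2 (TKO), or Cpt2 together with Ppara (Cpt2PparaDKO; the label writes PPAR, the design text Ppara). CPT1 and CPT2 act in turn to bring long-chain fatty acids to the mitochondrial matrix, where they are oxidised, and PPARalpha is a nuclear receptor that drives fasting genes of lipid metabolism. The driver of the liver-specific deletion, the strain, the age and the sex of the mice are not named in the labels. The labels leave unsaid whether Control mice carried a floxed Ppara allele, and whether replicates are separate animals. The p-values thus set group differences only against the spread of these libraries, part of which may be technical.

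Each of the 5 groups held 4 libraries, 20 in all. Library totals lay between 14129595 and 20273303 counts, except 36452673 for Cpt2PparaDKO replicate 1. Among the targeted genes, Cpt1a stood at 1037 ± 76.6 CPM (counts relative to TMM-scaled library totals, mean ± SD, n = 4) in Control, 155 ± 12.2 in Cpt1DKO and 137 ± 12.6 in TKO. Cpt2 stood at 249 ± 26.2 CPM in Control, 131 ± 23.6 in Cpt2KO, 103 ± 11.7 in TKO and 33.9 ± 4.86 in Cpt2PparaDKO, and Ppara at 233 ± 46.0 CPM in Control and 73.1 ± 13.0 in Cpt2PparaDKO. Cpt1b, at 0.543 ± 0.215 CPM in Control, 0.880 ± 0.216 in Cpt1DKO and 2.80 ± 0.308 in TKO, did not check those labels. The libraries Cpt2KO replicate 3 and Cpt2PparaDKO replicate 4 had the transcripts of females (Xist high, Y-linked genes near 0), and the other 18 those of males. The summed level of 8 hepatocyte markers, all detected, ran from 76588 to 93824 CPM in Control, 71295 to 79440 in Cpt1DKO, 36961 to 66349 in Cpt2KO, 33029 to 60240 in TKO and 30720 to 37814 in Cpt2PparaDKO. In whole liver RNA, fewer cells of a type and less RNA per cell cannot be told apart.

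Promoter sequences are shown for the 4 genes whose 250 bases before the start of transcription held the letters CAAAACA, the core of the insulin response element through which FOXO1 is known to act on Igfbp1. Sequences come from RefSeq on build GRCm38.p6, an older build than the GRCm39 of the counts, and are written 5′ to 3′ on the gene's own strand. Capitals mark CAAAACA or, on the other strand, TGTTTTG.
Igfbp1, chr11:7197537-7197786, plus strand: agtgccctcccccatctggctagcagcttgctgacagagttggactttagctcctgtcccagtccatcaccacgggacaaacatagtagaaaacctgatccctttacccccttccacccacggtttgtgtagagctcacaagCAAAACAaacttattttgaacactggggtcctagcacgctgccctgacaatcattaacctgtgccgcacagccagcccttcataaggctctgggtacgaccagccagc
Lepr, second promoter, chr4:101717656-101717905, plus strand: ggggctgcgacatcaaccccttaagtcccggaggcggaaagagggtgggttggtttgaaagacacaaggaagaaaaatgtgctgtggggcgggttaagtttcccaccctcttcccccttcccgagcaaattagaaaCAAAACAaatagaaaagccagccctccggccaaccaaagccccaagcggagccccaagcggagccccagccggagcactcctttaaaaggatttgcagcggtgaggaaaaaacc
Irs1, chr1:82291440-82291689, minus strand: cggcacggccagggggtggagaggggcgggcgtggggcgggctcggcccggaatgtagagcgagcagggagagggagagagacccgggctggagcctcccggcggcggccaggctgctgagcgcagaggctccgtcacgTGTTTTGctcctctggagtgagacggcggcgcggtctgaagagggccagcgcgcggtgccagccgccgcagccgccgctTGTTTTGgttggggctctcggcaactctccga
Irs2, chr8:11008930-11009179, minus strand: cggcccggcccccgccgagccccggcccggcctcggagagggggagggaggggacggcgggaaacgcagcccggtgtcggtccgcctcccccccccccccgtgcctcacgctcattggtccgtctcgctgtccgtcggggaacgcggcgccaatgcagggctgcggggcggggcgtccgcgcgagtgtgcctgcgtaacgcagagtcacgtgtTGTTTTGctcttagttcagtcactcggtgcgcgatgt
RefSeq promoters were matched by symbol for 9 of the 10 genes, 14 promoters in all; Socs2 was not matched. The motif began 108 bases before the start in Igfbp1, 114 in the second Lepr promoter, 111 and 32 in Irs1 and 37 in Irs2. It lay in 5.56% of the 32851 promoters searched in the same way and in 6.38% of 27025 genes, against 4 of 9 members. The letters were picked after these sequences had been seen, so that count is a description. The related FOXO consensus GTAAACA, on either strand, lay only in an Igfals promoter among the members (3.17% of all promoters). The STAT5 element TTCNNNGAA also lay only in Igfals, in 2 of its 3 promoters (7.02%), and the PPAR direct repeat, AGGTCA repeated with 1 base between, in no member (0.0335%). Matches of different motifs did not overlap, and a match is not a measured binding site. Of the genes with CAAAACA, Igfbp1 and Lepr were called higher in mutants, whereas Irs1 was called lower in 1 group. Irs2 was not called, but its log2 value against Control was positive in every mutant group, lowest in TKO (0.24) and highest in Cpt1DKO (0.95). The latter missed the threshold with edgeR (adjusted p = 0.0706) and passed it with DESeq2 (adjusted p = 0.0163). The part of the motif in these changes was not tested.

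**Figure D1:**
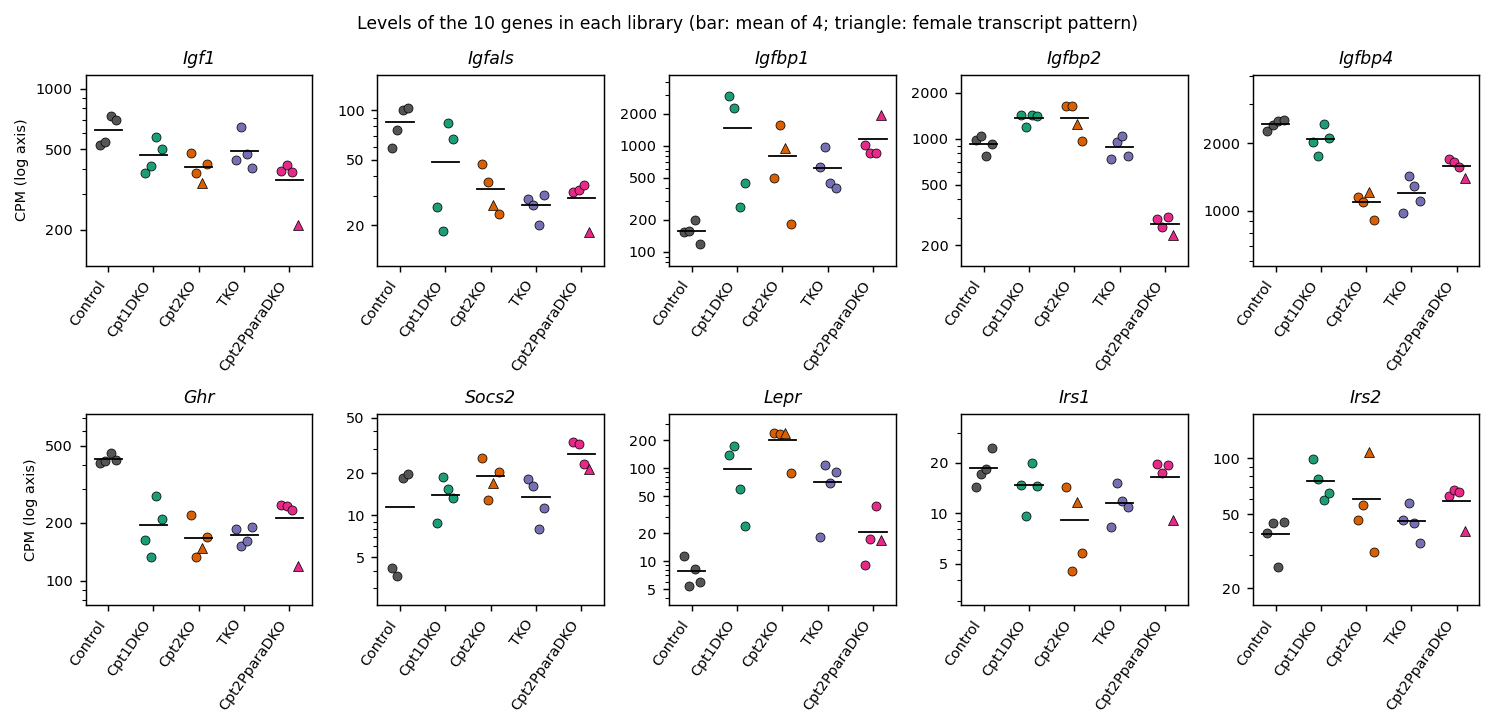
CPM of each of the 10 genes (log axis) in every library of the 5 groups; bars are means of 4 libraries, and triangles mark the 2 libraries with female transcripts. Ghr lies between 407 and 459 CPM in Control and at 274 or lower in every mutant library, and Lepr reaches its highest values in Cpt2KO.

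All 10 genes passed the filter on low counts. A gene was called at an edgeR adjusted p under 0.05 over 15669 genes. Against Control, 3 of 10 were called in Cpt1DKO, 2 higher and 1 lower, where 5.55% of all tested genes were called (2.44% higher, 3.1% lower). In Cpt2KO 8 of 10 were called, 3 higher and 5 lower, beside 33.4% of all genes (16.2% higher, 17.2% lower). In TKO 5 were called, 2 higher and 3 lower, beside 27.4% (13% higher, 14.4% lower), and in Cpt2PparaDKO 7, 2 higher and 5 lower, beside 32.5% (14.9% higher, 17.6% lower). Libraries of the groups did not overlap for 5 of 10 genes in Cpt1DKO (16.9% of all genes), 6 in Cpt2KO (30.9%), 5 in TKO (33.3%) and 7 in Cpt2PparaDKO (35.1%). The median log2 fold change of the 10 genes was 0.03, -0.03, -0.22 and -0.40 in that order, and of all tested genes -0.01, -0.01, -0.01 and 0.00. The 4 comparisons share the Control libraries, so their values stand side by side and are not independent of each other. Ghr was the only gene of the 10 called lower in every mutant group, and Igfbp1 the only one called higher in every mutant group.

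**Figure D2:**
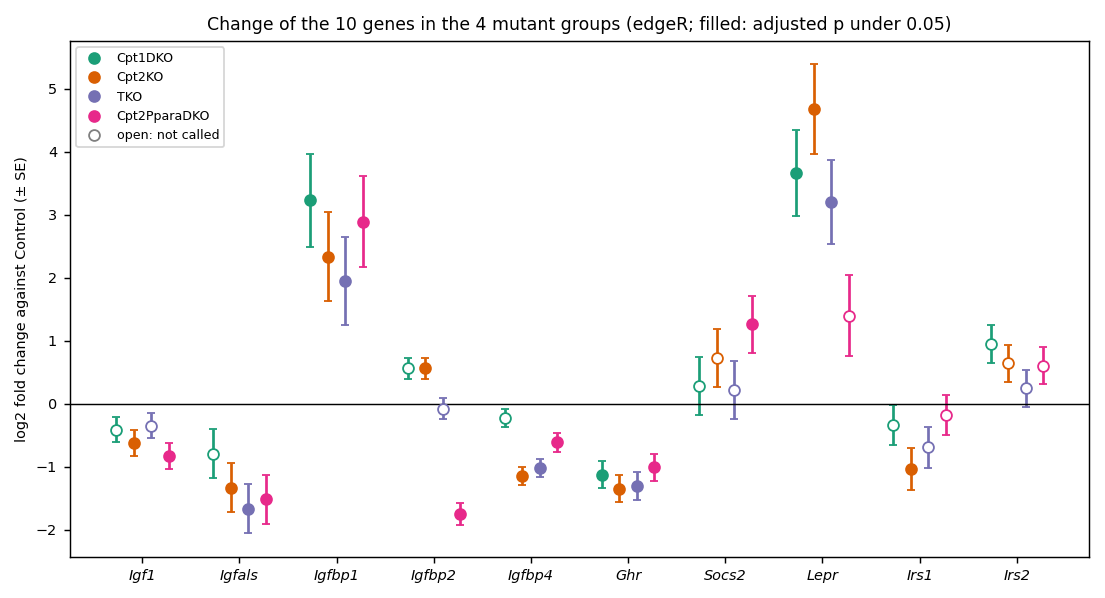
Log2 fold change against Control (± SE) of each gene in the 4 mutant groups; filled points are called. Igfbp1 is filled above 0 and Ghr below 0 in all 4 groups, whereas Igfbp2 lies above 0 in Cpt1DKO and Cpt2KO and at -1.75 in Cpt2PparaDKO.

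Igf1 (chromosome 10, GRCm39 positions 87694127 to 87772904, plus strand) encodes the circulating growth factor made by hepatocytes under growth hormone. Its levels in replicates 1 to 4 were 527, 545, 735 and 703 CPM in Control, 383, 414, 577 and 505 in Cpt1DKO, 481, 382, 342 and 422 in Cpt2KO, 444, 642, 472 and 406 in TKO, and 392, 418, 385 and 212 in Cpt2PparaDKO. All Cpt2KO and Cpt2PparaDKO libraries lay below all Control libraries, while Cpt1DKO and TKO overlapped with Control. Igf1 fell by 0.63 on the log2 scale in Cpt2KO (SE 0.20, adjusted p = 0.0198) and by 0.83 in Cpt2PparaDKO (SE 0.20, adjusted p = 0.00319). The values in Cpt1DKO (-0.42, SE 0.20, adjusted p = 0.231) and TKO (-0.35, SE 0.20, adjusted p = 0.204) did not pass. The Cpt2KO call was lost, with adjusted p up to 0.0764, when Control replicate 3 or 4, or Cpt2KO replicate 2 or 3, was left out. An antisense gene, Igf1os, overlaps Igf1 and had at most 55 counts in a library, so its reads could add little to the 5460 or more counted for Igf1.

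Igfals (chromosome 17, positions 25084971 to 25100984, plus strand) encodes the acid-labile subunit, which holds IGF-1 in a long-lived complex in blood. It had 58.8, 75.7, 100.1 and 103 CPM in Control, 25.8, 18.6, 83.7 and 67.0 in Cpt1DKO, 47.4, 36.4, 26.6 and 23.6 in Cpt2KO, 28.8, 26.6, 20.1 and 30.8 in TKO, and 31.7, 32.9, 35.1 and 18.2 in Cpt2PparaDKO. Every library of the 3 groups that lack Cpt2 lay below every Control library; in Cpt1DKO, replicates 1 and 2 did and replicates 3 and 4 lay within the Control range. On the log2 scale Igfals changed by -1.34 in Cpt2KO (SE 0.39, adjusted p = 0.0132), by -1.67 in TKO (SE 0.39, adjusted p = 0.00419) and by -1.52 in Cpt2PparaDKO (SE 0.39, adjusted p = 0.00649). In Cpt1DKO the change of -0.79 (SE 0.38, adjusted p = 0.243) did not pass.

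Igfbp1 (chromosome 11, positions 7147782 to 7152546, plus strand) encodes a binding protein of the liver that insulin represses and fasting raises. Control libraries held 156, 157, 200.2 and 119 CPM, a mean of 158 ± 33.3. The 4 Cpt1DKO libraries held 2917, 2278, 265 and 442 CPM, and those of Cpt2KO 496, 1551, 954 and 183. TKO libraries held 628, 968, 448 and 398 CPM, and Cpt2PparaDKO libraries 1016, 844, 846 and 1953. Every mutant library except Cpt2KO replicate 4 lay above all Control libraries, and the highest Cpt1DKO library was 11.02 times the lowest, against 1.69 times in Control. The log2 rise was 3.22 in Cpt1DKO (SE 0.73, adjusted p = 0.0182), 2.33 in Cpt2KO (SE 0.71, adjusted p = 0.0177), 1.95 in TKO (SE 0.70, adjusted p = 0.0473) and 2.88 in Cpt2PparaDKO (SE 0.72, adjusted p = 0.00601). The TKO call was lost without any 1 of the 8 libraries of the comparison (adjusted p 0.0506 to 0.124). The Cpt1DKO call did not survive leaving out Control replicate 2, Control replicate 4 or either of Cpt1DKO replicates 1 and 2 (up to 0.0696), and the Cpt2KO call without Control replicate 4 or Cpt2KO replicate 2 (up to 0.0681). Only the Cpt2PparaDKO call held in every alternative fit. None of the 4 comparisons between mutant groups called Igfbp1.

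Igfbp2 (chromosome 1, positions 72863662 to 72891633, plus strand) encodes a further IGF binding protein that hepatocytes secrete. Its levels were 980.0, 1037, 774 and 915 CPM in Control and 1430.1, 1197, 1434 and 1404 in Cpt1DKO. Cpt2KO libraries held 1642, 1628, 1238 and 964 CPM, TKO libraries 732, 953, 1048 and 765, and Cpt2PparaDKO libraries 299, 264, 305 and 235. All Cpt1DKO libraries lay above Control and all Cpt2PparaDKO libraries below every library of the other groups, with TKO overlapping Control. Igfbp2 rose in Cpt2KO by 0.56 on the log2 scale (SE 0.17, adjusted p = 0.0132; 0.0517 without Cpt2KO replicate 2) and fell by 1.75 in Cpt2PparaDKO (SE 0.17, adjusted p = 3.6e-07). The same log2 value of 0.56 in Cpt1DKO (SE 0.17, adjusted p = 0.0539) missed the threshold, and passed it with RLE factors (adjusted p = 0.0492), DESeq2 (0.0116), no filter on low counts (0.0344), only the compared groups in the fit (0.0121), the 2 female libraries left out (0.0303) or sex pattern as a covariate (0.0392). In TKO the change was -0.08 (SE 0.17, adjusted p = 0.757). Between the groups that lack Cpt2, Cpt2PparaDKO was 4.96-fold lower than Cpt2KO, a log2 change of -2.31 (95% confidence interval -2.68 to -1.94, adjusted p = 4.04e-09).

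Igfbp4 (chromosome 11, positions 98932070 to 98945218, plus strand) encodes a binding protein that blocks IGF action until a protease cleaves it. It held 2278, 2426, 2506 and 2532 CPM in Control, 2037, 1755, 2435 and 2118 in Cpt1DKO, 1153, 1099.8, 1219 and 912 in Cpt2KO, 976, 1430.1, 1287 and 1106 in TKO, and 1711, 1659, 1576 and 1405 in Cpt2PparaDKO. Cpt2KO lay below Control and Cpt1DKO without overlap, TKO likewise, and Cpt2PparaDKO lay above Cpt2KO and below Control. Igfbp4 fell by 1.15 on the log2 scale in Cpt2KO (SE 0.15, adjusted p = 5.07e-06), by 1.02 in TKO (SE 0.15, adjusted p = 3.14e-05) and by 0.62 in Cpt2PparaDKO (SE 0.14, adjusted p = 0.0025). In Cpt1DKO the value was -0.22 (SE 0.14, adjusted p = 0.395). It was also the only member called between Cpt2KO and Cpt1DKO (fell by 0.93, SE 0.14, adjusted p = 0.0003), where 14.1% of all genes were called (7.41% higher, 6.71% lower) and groups did not overlap for 15.9%. These calls held in every alternative fit.

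Ghr (chromosome 15, positions 3347242 to 3612974, minus strand) encodes the growth hormone receptor, which hepatocytes express at a high level. Its levels were 407, 416, 459 and 423 CPM in Control, 164, 133, 274 and 209 in Cpt1DKO, 219, 133, 148 and 168 in Cpt2KO, 186, 152, 161 and 191 in TKO, and 248, 245, 232 and 120.1 in Cpt2PparaDKO. Each of the 16 mutant libraries lay below each Control library. Ghr fell 2.19-fold in Cpt1DKO, 2.55-fold in Cpt2KO, 2.47-fold in TKO and 2.02-fold in Cpt2PparaDKO. The log2 changes were -1.13 (SE 0.22, adjusted p = 0.00436), -1.35 (SE 0.22, adjusted p = 8.19e-05), -1.31 (SE 0.22, adjusted p = 0.000174) and -1.01 (SE 0.22, adjusted p = 0.00129) in that order, and all 4 calls held in every alternative fit. Of the 4 comparisons between mutant groups none called Ghr; without Cpt2PparaDKO replicate 4 it was called higher in Cpt2PparaDKO than in Cpt2KO (0.55, adjusted p = 0.0325). The hepatocyte marker sums were also below Control in the 3 groups that lack Cpt2. Their median sums were 50187 CPM in Cpt2KO, 40177 in TKO and 34435 in Cpt2PparaDKO, beside 87315 in Control and 73367 in Cpt1DKO. Of 8 hepatocyte markers, 1 was called lower in Cpt1DKO (3.1% of all tested genes). In Cpt2KO 4 were called lower (17.2%), in TKO 4 (14.4%) and in Cpt2PparaDKO 6 (17.6%). In Cpt2KO, Alb, Ttr, Serpina1a and Fgb were called lower, and Apoa1, Apoc3, Tat and Hnf4a were not called. The part of the hepatocyte marker sums in the results for Ghr, Igfals, Igf1 and Igfbp4 was not tested.

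Socs2 (chromosome 10, positions 95221224 to 95253042, minus strand) encodes a feedback inhibitor of the growth hormone receptor that STAT5 induces. In Control the 4 libraries split into 4.20 and 3.65 CPM and 18.4 and 19.9 CPM, the widest relative range of any member in that group (5.46 times). Cpt1DKO ran from 8.74 to 18.9 CPM, Cpt2KO from 12.9 to 25.8, TKO from 7.93 to 18.2, and Cpt2PparaDKO from 21.5 to 33.3. Socs2 was called higher in Cpt2PparaDKO (1.26 on the log2 scale, SE 0.45, adjusted p = 0.0427), and this call was lost in 5 of 8 fits that left out a library and in 4 of the 7 other settings. Without Control replicate 1 the value was 0.98 (adjusted p = 0.103), and without Control replicate 2 it was also 0.98 (adjusted p = 0.0972). It was also lost without Cpt2PparaDKO replicate 1 (adjusted p = 0.0872), 2 (0.0815) or 4 (0.052). The other 3 groups gave log2 values of 0.28, 0.72 and 0.21 that did not pass.

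Lepr (chromosome 4, positions 101574601 to 101672549, plus strand) encodes the leptin receptor; counts per gene do not separate its long signalling form from the short and soluble ones. Control libraries held 11.4, 5.40, 8.25 and 5.97 CPM. Cpt1DKO libraries held 137, 172, 59.1 and 23.6 CPM, Cpt2KO libraries 236, 233, 239 and 88.8, TKO libraries 18.3, 108, 68.8 and 89.6, and Cpt2PparaDKO libraries 9.18, 17.1, 39.1 and 16.7. Every library of Cpt1DKO, Cpt2KO and TKO lay above every Control library, and every Cpt2KO library above every Cpt2PparaDKO library. Lepr rose 12.6-fold in Cpt1DKO (log2 3.65, SE 0.68, adjusted p = 0.00588), 25.6-fold in Cpt2KO (log2 4.68, SE 0.71, adjusted p = 0.000111) and 9.16-fold in TKO (log2 3.19, SE 0.67, adjusted p = 0.0021). In Cpt2PparaDKO the log2 value was 1.39 (95% confidence interval 0.04 to 2.75, adjusted p = 0.108), which did not pass. Cpt2PparaDKO was 9.73-fold lower than Cpt2KO (log2 -3.28, SE 0.66, adjusted p = 0.00169). The 3 rises and this difference held in every alternative fit. Fitting Control and Cpt2PparaDKO alone called Lepr there too (adjusted p = 0.031).

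Irs1 (chromosome 1, positions 82210822 to 82269137, minus strand) and Irs2 (chromosome 8, positions 11034681 to 11058458, minus strand) encode the adaptors that pass the insulin receptor's signal to phosphoinositide 3-kinase. Irs1 held 14.4, 17.1, 18.4 and 24.5 CPM in Control and 14.3, 4.53, 11.7 and 5.82 in Cpt2KO, all below Control. It fell by 1.04 on the log2 scale (SE 0.33, adjusted p = 0.0199); the call was lost when Control replicate 4 or Cpt2KO replicate 2 or 4 was left out (up to 0.0727) and without the filter on low counts. In the other groups Irs1 ranged from 8.30 to 20.03 CPM and was not called against Control. With only the compared groups in the fit, Irs1 passed in TKO (-0.67, adjusted p = 0.0223). Its difference between Cpt2PparaDKO and Cpt2KO (0.86, SE 0.33, adjusted p = 0.0613) was not called. That difference passed with DESeq2 (0.0374), without the 2 female libraries (0.0144), and without Cpt2KO replicate 1 (0.0174) or 3 (0.0497) or Cpt2PparaDKO replicate 4 (0.0179). Irs2 held 39.5, 44.8, 25.9 and 45.4 CPM in Control and 98.8, 77.1, 59.7 and 64.9 in Cpt1DKO, where all libraries lay above Control. The log2 value of 0.95 there (SE 0.30, adjusted p = 0.0706) did not pass, and did with DESeq2 (adjusted p = 0.0163) or with only the compared groups in the fit (adjusted p = 0.0178). Irs2 had log2 values of 0.64 in Cpt2KO, 0.24 in TKO and 0.60 in Cpt2PparaDKO, none of which passed. Without the 2 female libraries the Cpt2PparaDKO value was 0.77 (adjusted p = 0.0127) and the Cpt1DKO value 0.95 (adjusted p = 0.00713).

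Mutant groups were also compared with each other. In Cpt2PparaDKO against Cpt2KO, 3 of 10 genes were called, with Igfbp2 and Lepr lower and Igfbp4 higher (0.53, SE 0.14, adjusted p = 0.00947), where 24.4% of all genes were called (12.1% higher, 12.2% lower). The same 3 genes had groups that did not overlap, beside 22.6% of all genes. In TKO against Cpt1DKO, 2 were called, both lower, beside 4.65% of all genes (2.6% higher, 2.06% lower): Igfbp4 (-0.80, SE 0.14, adjusted p = 0.00335) and Igfbp2 (-0.64, SE 0.17, adjusted p = 0.0311). These 2 and Irs2, which was not called, had groups that did not overlap (13.9% of all genes). The Igfbp2 call was lost without Cpt1DKO replicate 1, 3 or 4 or TKO replicate 1 or 4 (up to 0.118). In TKO against Cpt2KO, edgeR called 0 of 10 genes, beside 0.0511% of all genes (0.0319% higher, 0.0191% lower), and 0 of 10 had groups that did not overlap (4.79% of all genes). Of the 10, 2 had an unadjusted p under 0.05, and DESeq2 called 1, Igfbp2 (-0.66, adjusted p = 0.0329). The largest difference there was that of Lepr, -1.48 on the log2 scale (95% confidence interval -2.78 to -0.19, adjusted p = 0.418).

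The interaction compares the difference that Cpt2 loss makes in mice that also lack Cpt1a and Cpt1b (TKO against Cpt1DKO) with the difference it makes in mice that keep them (Cpt2KO against Control). It was called for 3 of 10 genes, 1 higher and 2 lower, beside 2.7% of all genes (1.42% higher, 1.28% lower). For Lepr, Cpt2 loss gave a log2 difference of 4.68 without Cpt1 loss and -0.46 with it, an interaction of -5.14 (SE 0.91, adjusted p = 0.00767). For Igfbp2 the differences were 0.56 and -0.64, an interaction of -1.21 (SE 0.24, adjusted p = 0.00908). For Ghr they were -1.35 and -0.18, an interaction of 1.17 (SE 0.31, adjusted p = 0.0445). Lepr and Igfbp2 kept their calls in every alternative fit, whereas Ghr kept its call in 2 of 16 fits that left out a library, with adjusted p up to 0.103. Igfbp1 had an interaction of -3.61 (SE 0.98, adjusted p = 0.0586) that passed with DESeq2 (adjusted p = 0.00188) or when Cpt1DKO replicate 3 or 4 or Cpt2KO replicate 4 was left out (0.0224, 0.0466 and 0.0346). Irs2 had an interaction of -1.35 (SE 0.42, adjusted p = 0.091). It passed with DESeq2 (adjusted p = 0.0211) or when Cpt2KO replicate 4 was left out (0.035).

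Levels between genes were compared in the authors' FPKM, which is scaled by gene length. In Control, Igfbp4 (542 ± 26.6 FPKM, SD, n = 4) and Igfbp2 (492 ± 59.0) were highest and overlapped with each other. They were followed by Igfbp1 (102 ± 21.5), Igf1 (62.2 ± 10.8), Ghr (46.2 ± 2.53), Igfals (26.2 ± 6.60) and Irs2 (6.04 ± 1.40), with no overlap between neighbours in that order. Irs1 (2.00 ± 0.464), Socs2 (1.19 ± 0.913) and Lepr (1.08 ± 0.378) were lowest, and neighbours overlapped. The order differed in the mutants: Igfbp1 had the highest mean in Cpt1DKO (963 ± 867 FPKM) and Cpt2PparaDKO (757 ± 344), and Igfbp2 in Cpt2KO (736 ± 176) and TKO (468 ± 81.1). Igfbp1 and Igfbp2 overlapped in Cpt1DKO, Cpt2KO and TKO, so their order there is not set beyond the spread of libraries. Lepr, lowest of the 10 in Control, was the fifth in Cpt2KO at 28.1 ± 10.3 FPKM, overlapping with Ghr at 18.3 ± 4.03.

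**Figure D3:**
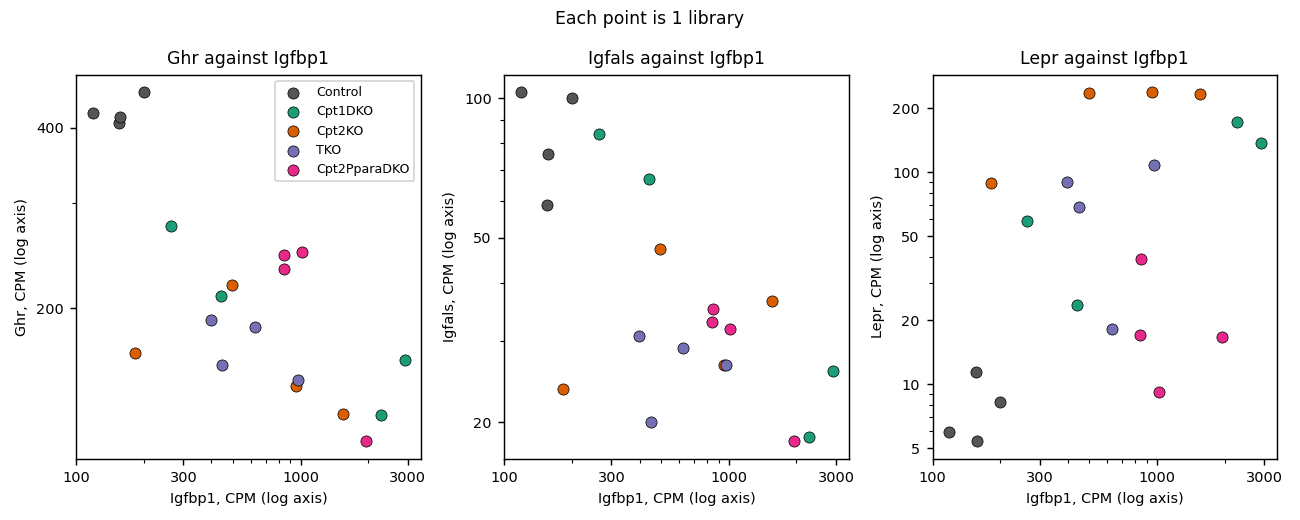
Ghr, Igfals and Lepr against Igfbp1, in CPM on log axes; each point is 1 library. Control libraries lie at 119 to 200.2 CPM of Igfbp1 and 5.40 to 11.4 CPM of Lepr, while Cpt2PparaDKO libraries combine 844 to 1953 CPM of Igfbp1 with 9.18 to 39.1 CPM of Lepr.

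Within groups, the deviation of each library's log2 CPM from its group mean was correlated for the 45 pairs of genes over the 20 libraries, with 100000 permutations within groups and Benjamini-Hochberg adjustment over the pairs. Igfbp4 and Irs1 deviated together (Pearson's r = 0.75, permutation p = 0.00033, adjusted 0.01485; Spearman's rho = 0.80, permutation p = 0.00013, adjusted 0.00585), with r = 0.72 without the 2 libraries farthest from the median of Igfbp4. Igfals and Ghr did so by Pearson's r (0.79, permutation p = 0.00168, adjusted 0.0378), with r = 0.67 without Cpt1DKO replicates 2 and 3, and narrowly missed by Spearman's rho (0.76, permutation p = 0.00254, adjusted 0.0571). Igfbp1 and Ghr deviated in opposite directions (r = -0.70, permutation p = 0.00729, adjusted 0.0631; rho = -0.75, permutation p = 0.0046, adjusted 0.069), which did not pass. Of the 45 pairs, 2 passed by Pearson's r and 1 by Spearman's rho. In Cpt1DKO, the 2 libraries with the highest Igfbp1 had the lowest Ghr and Igfals and the highest Lepr and Irs2 of the group. These libraries, replicates 1 and 2, also differed least over all tested genes (chi-square per degree of freedom 14.5). Replicates 3 and 4 had 22.0, and pairs across the split 29.6 to 62.0.

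By Pearson correlation of log2 CPM over all 20 libraries, the 3 genes most like each member were taken from 12692 protein-coding genes; the libraries share their group differences and this is a description. Nearest to Igfbp1 were Ppp1r15a (r = 0.88), a phosphatase subunit of the stress response, Btg2 (0.86), an antiproliferative gene, and Egr1 (0.86), an immediate early transcription factor. Nearest to Igfbp2 were Eci1 (0.96), Acot8 (0.96) and Mgll (0.95), enzymes of lipid metabolism, and Eci1 stood at 67.5 ± 10.8 CPM in Cpt2PparaDKO and 221 ± 17.9 in Control. Nearest to Lepr were Adra2a (0.93), an adrenergic receptor, Kirrel (0.90) and Fabp4 (0.89), a fatty acid binding protein. Fabp4 stood at 7.45 ± 2.20 CPM in Control, 52.8 ± 29.7 in Cpt2KO and 15.8 ± 5.21 in Cpt2PparaDKO. The nearest gene to Igf1 was Ces3a (0.94), to Igfals Proc (0.94), which encodes protein C, to Igfbp4 Serpind1 (0.97), which encodes heparin cofactor II, and to Ghr Nat8f1 (0.96). For Irs1 it was Dapk1 (0.91), for Irs2 Fbln2 (0.76) and for Socs2 Mgme1 (0.73).

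Other genes of the pathways were taken from lists written from textbook knowledge, but with earlier results of these data known. The counts include the members. They stand beside the share of all tested genes that was called, which was 5.55% for Cpt1DKO, 33.4% for Cpt2KO, 27.4% for TKO and 32.5% for Cpt2PparaDKO. Of 13 genes of growth hormone receptor signalling, 2 fell and 0 rose in Cpt1DKO, 5 fell and 1 rose in Cpt2KO and likewise in TKO, and 2 fell and 2 rose in Cpt2PparaDKO. The list's median log2 fold changes were -0.32, -0.41, -0.42 and -0.26 in that order. Ptpn2, a phosphatase that acts on JAK kinases, rose by 0.43 in Cpt2KO, 0.56 in TKO and 0.52 in Cpt2PparaDKO. Prlr, the prolactin receptor, fell by 0.99 in Cpt2KO, and Socs3, an inhibitor of cytokine receptors, by 1.19 in TKO. Stat5b, the main transducer of the growth hormone receptor in liver, was not called and stood at 74.2 ± 7.22 CPM in Control and 59.3 ± 5.90 to 64.9 ± 12.5 in the mutants. Of 16 genes of the IGF list 11 were tested; outside the members, Igfbp5 fell by 1.56 in Cpt2KO and 0.99 in Cpt2PparaDKO, and Igf1r, the IGF-1 receptor, rose by 0.85 in Cpt1DKO and 0.67 in Cpt2PparaDKO. In all, 2 of these 11 rose and 0 fell in Cpt1DKO, 2 rose and 4 fell in Cpt2KO, 1 rose and 2 fell in TKO, and 2 rose and 5 fell in Cpt2PparaDKO.

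Of 35 genes of insulin receptor signalling, 2 rose and 1 fell in Cpt1DKO, 6 and 4 in Cpt2KO, 7 and 3 in TKO, and 2 and 8 in Cpt2PparaDKO, with list medians of -0.02, -0.08, 0.02 and -0.11. These are 8.57% of the list in Cpt1DKO and 28.6% in each of the others, beside the 5.55%, 33.4%, 27.4% and 32.5% of all tested genes. Pik3r1, the regulatory subunit of phosphoinositide 3-kinase, fell in all 4 groups, by 0.83, 1.14, 0.91 and 0.61. Mtor, the kinase of both mTOR complexes, rose by 0.61, 1.20 and 1.20 in Cpt1DKO, Cpt2KO and TKO and stood at 76.8 ± 21.4 CPM in Cpt2PparaDKO beside 80.0 ± 9.37 in Control. In Cpt2PparaDKO, Trib3, an inhibitor of AKT, rose by 2.75 (SE 0.39, adjusted p = 5.59e-05) and Foxo1 fell by 1.07 (SE 0.33, adjusted p = 0.0192). Insr, the insulin receptor itself, named after its values were seen, fell by 0.61 in Cpt2KO and 0.77 in Cpt2PparaDKO. Of 8 genes of leptin receptor signalling, 1 rose in Cpt1DKO (Lepr), 3 rose and 2 fell in Cpt2KO, 2 rose and 3 fell in TKO, and 1 rose in Cpt2PparaDKO. Leprot, whose product lowers the amount of leptin receptor at the cell surface, rose by 0.44 in Cpt2KO, 0.50 in TKO and 0.47 in Cpt2PparaDKO. Jak2 and Stat3, which carry the leptin signal, fell in Cpt2KO (by 0.41 and 0.50) and TKO (by 0.42 and 0.43).

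**Figure D4:**
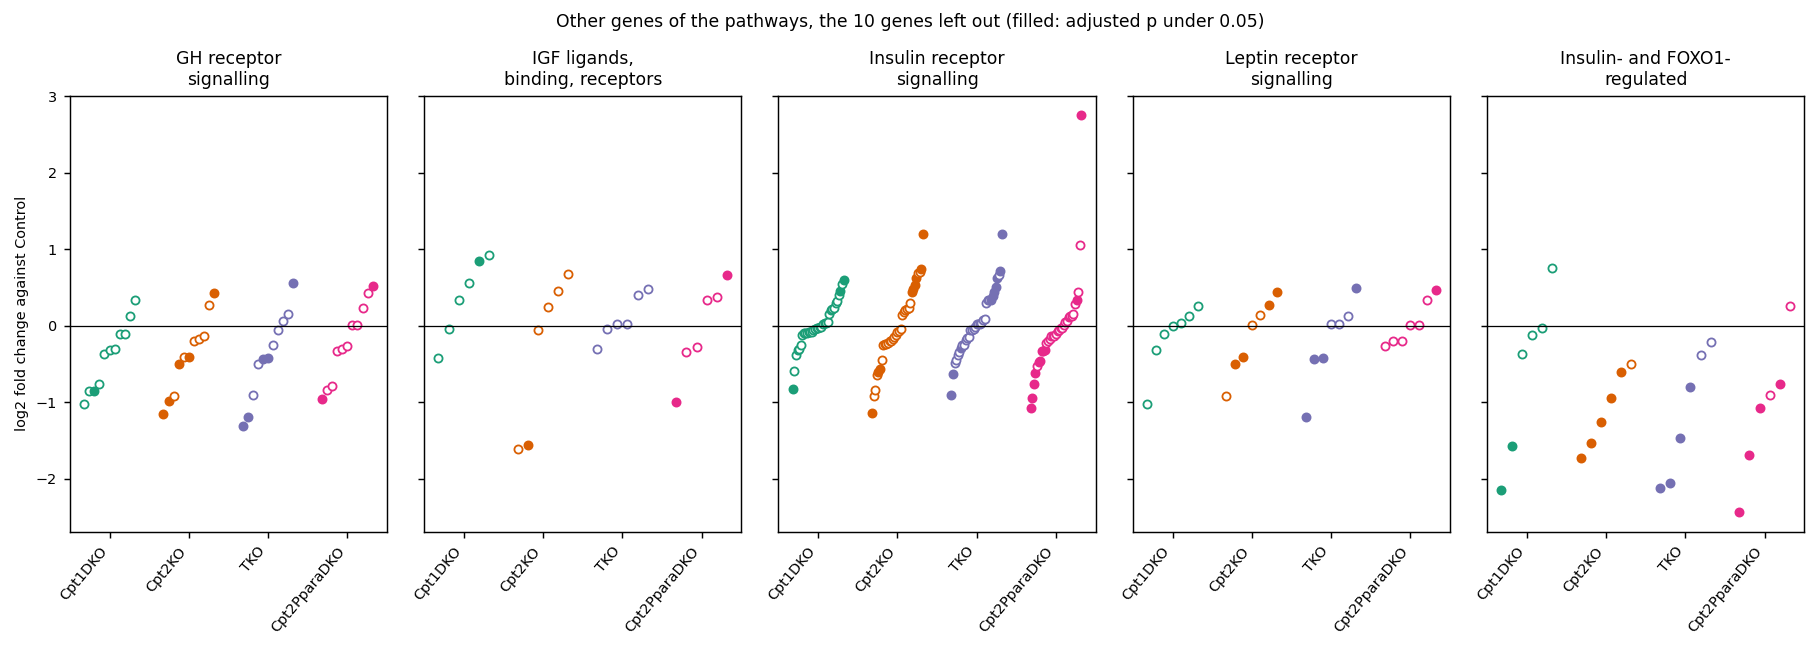
Log2 fold change against Control of the other tested genes of 5 pathway lists, with the 10 members left out, in the 4 mutant groups; each point is 1 gene and filled points are called. Most points lie within 1 of zero, and Trib3 in Cpt2PparaDKO is highest at 2.75.

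Of 8 tested liver genes known to respond to insulin or FOXO1, 1 rose (Igfbp1) and 2 fell in Cpt1DKO, 1 rose and 5 fell in Cpt2KO, and 1 rose and 4 fell in TKO and in Cpt2PparaDKO. G6pc and Pck1 encode glucose-making enzymes and are also driven by FOXO1. Both fell in Cpt2KO, TKO and Cpt2PparaDKO. G6pc fell by 1.53 in Cpt2KO, 2.06 in TKO and 2.43 in Cpt2PparaDKO, and Pck1 by 0.95, 0.80 and 1.08. Neither was called in Cpt1DKO. The part of FOXO1 in these changes was not tested. Srebf1, a lipogenic factor induced by insulin, fell by 1.57, 1.25, 1.47 and 1.69 in the 4 groups. Of 18 genes known to differ by sex under growth hormone pulses 12 were tested: 3 were called in Cpt2KO, 2 each in TKO and Cpt2PparaDKO, and 0 in Cpt1DKO. In no group did this list exceed the share of all tested genes that was called. Slco1a1, a transporter higher in males, fell by 2.64 in Cpt2KO and 1.83 in TKO. Cyp2a4, higher in females, was called higher in Cpt2KO and Cpt2PparaDKO, the groups that each hold a female library, and ran from 5.735 to 2047 CPM in Cpt2PparaDKO. Cyp2d9, higher in males, fell by 2.24 in Cpt2PparaDKO, and Cux2, a factor of female liver, by 2.57 in TKO. Cyp2a4 and Cyp2d9 have near-identical paralogs, and their counts are uncertain for that reason.

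Markers of other liver cells were read in the same libraries. Of 8 stellate cell and fibroblast markers, none at 0, 5 rose in Cpt2PparaDKO (14.9% of all tested genes), 1 in Cpt1DKO (2.44%) and 1 in Cpt2KO (16.2%). Their sum was 204 to 241 CPM in Control, 268 to 317 in Cpt1DKO, 273 to 369 in Cpt2KO, 241 to 282 in TKO and 309 to 324 in Cpt2PparaDKO. Of 8 macrophage markers, none at 0, Cd68 rose in Cpt2KO, TKO and Cpt2PparaDKO and Clec4f fell in TKO. Their sum was 169 to 327 CPM in Control, 194 to 239 in Cpt1DKO, 169 to 369 in Cpt2KO, 135 to 228 in TKO and 320 to 373 in Cpt2PparaDKO. The sum over 8 pancreas and adipose markers, 3 of them at 0 in every library, was 3.80 to 8.77 CPM. The part of these cells in the results for Lepr and the binding proteins was not tested.

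In the authors' deposited tables of each mutant group against Control, 8 of the 10 genes were called in Cpt2KO and in Cpt2PparaDKO, 6 in TKO and 5 in Cpt1DKO at an adjusted p under 0.05. Of the edgeR calls, 8 of 8 in Cpt2KO, 6 of 7 in Cpt2PparaDKO, 5 of 5 in TKO and 3 of 3 in Cpt1DKO were among them, and the sign was the same for 10 of 10 genes in each comparison. The exception was Socs2 in Cpt2PparaDKO (adjusted p = 0.117 in the authors' deposited table). Called in the authors' deposited tables and not by edgeR were Lepr (adjusted p = 0.00216) and Irs2 (0.0218) in Cpt2PparaDKO, Irs1 (0.00908) in TKO, and Igfbp2 (5.52e-05) and Irs2 (0.000131) in Cpt1DKO.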

How the data were processed

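Liver RNA of 20 libraries was sequenced. The authors deposited raw counts of reads for each gene, and FPKM values whose denominator is not stated. Per the submitters' processing notes, the tool was HISAT2 and the build GRCm39 (mm39); the aligner's version, the counter, its use of strand and the annotation release: not given in the sources used here. The authors also deposited tables of log2 fold changes and adjusted p-values against Control, whose test is not stated.

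Counts were matched to libraries by title (0 columns unmapped, 0 rows without a gene). Of 31344 genes with a count, filterByExpr (minimum count 10) left 15669, scaled with TMM. CPM uses these factors. An edgeR 4.0.16 quasi-likelihood model (R 4.3.3) with a term for group alone took in all libraries, and p-values were adjusted by Benjamini-Hochberg over all tested genes, two-sided. SE is the log2 fold change over the square root of F. All adjusted p-values are from this test unless another tool is named. The script was tested on simulated data.

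Alternatives were RLE factors, DESeq2 1.42.0, no filter, only the compared groups, a replicate block, leaving out libraries, and sex pattern left out or as a covariate. The members, gene lists and tests were chosen with earlier results of these data known. Named genes were all members, the targeted genes, up to 4 called genes of the largest change per pathway list and the 3 nearest genes by correlation. Results for 2 of the genes so named are not reported here. Lists of endothelial, bile duct and lymphocyte markers were also read against Control. Of 8 endothelial markers, 1 rose in Cpt1DKO (2.44% of all tested genes). Of 5 tested bile duct markers, 2 fell in Cpt2KO (17.2%), 2 in TKO (14.4%) and 1 in Cpt2PparaDKO (17.6%). Of 4 tested lymphocyte markers, 0 were called. Each pair of libraries of a group differed by more than sampling noise (chi-square per degree of freedom 12.6 to 171). The largest values were those of the pairs with Cpt2PparaDKO replicate 4. Figures were drawn with matplotlib.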

Additional observations from a re-analysis of the deposited data

Results flagged for a closer look

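In each group of 4 libraries, the highest and lowest CPM of each gene was set against the others. Of 50 combinations of gene and group, 6 had a value far from the rest. Chance gives about 1 in 20 only for independent, normally distributed values. Genes read in 1 library are not independent, so no excess over chance is read from this count. Of these, 4 were Cpt2PparaDKO replicate 4, a library with female transcripts: Igf1 at 212 CPM, Ghr at 120.1 and Irs2 at 40.7 were the lowest of their group, and Igfbp1 at 1953 was the highest. The part of sex in these values was not tested. The others were Igfbp2 in Cpt1DKO replicate 2, the lowest of its group at 1197 CPM, and Lepr in Cpt2KO replicate 4, the lowest at 88.8 CPM. Without Cpt2PparaDKO replicate 4, the falls of Igf1 and Ghr and the rise of Igfbp1 in that group were still called.

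A test of the interaction of Cpt1 loss and Cpt2 loss passed for 3 genes: Lepr (-5.14 on the log2 scale), Igfbp2 (-1.21) and Ghr (1.17). Lepr and Igfbp2 kept this call in every alternative; Ghr kept it in 2 of 16 fits that left out a library and lost it with a replicate block and without the filter on low counts.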

How the results depend on the processing

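Of 32 calls over the 9 comparisons, 23 held in every alternative and 9 were lost in at least 1; no called value changed direction. The number of members called moved with DESeq2 to 5 in Cpt1DKO against Control (edgeR 3), 1 in TKO against Cpt2KO (edgeR 0) and 5 in the interaction (edgeR 3); Cpt2PparaDKO against Cpt2KO had 4 (edgeR 3), and the other comparisons kept their number. Without both female libraries it moved to 5 in Cpt1DKO against Control and 2 in Cpt2KO against Cpt1DKO (all libraries 1), with smaller shifts to 4 in TKO against Control, 3 in TKO against Cpt1DKO and 4 in Cpt2PparaDKO against Cpt2KO. Leaving out 1 library at a time gave 2 to 3 calls in Cpt1DKO, 4 to 8 in Cpt2KO, 4 in every TKO fit and 6 to 7 in Cpt2PparaDKO, each against Control. It gave 1 to 2 in Cpt2KO against Cpt1DKO, 3 to 5 in Cpt2PparaDKO against Cpt2KO, 0 in TKO against Cpt2KO, 1 to 2 in TKO against Cpt1DKO and 2 to 4 in the interaction. In Cpt2KO against Control the count was 4 without Cpt2KO replicate 2 and 5 without Control replicate 4; in TKO against Cpt1DKO it was 1 without Cpt1DKO replicate 1, 3 or 4 or TKO replicate 1 or 4. Leaving out Cpt2KO replicate 3 gave 2 in Cpt2KO against Cpt1DKO, and leaving out Cpt2PparaDKO replicate 4 gave 5 in Cpt2PparaDKO against Cpt2KO. Libraries that share a replicate number showed no clear common deviation (median correlation 0.011 over 40 pairs, -0.20 to 0.23, 4 above 0.1). With 4 libraries per group this cannot exclude a weak pairing by number. A fit with a replicate block gave 3, 8, 4 and 6 calls against Control in the order above, 1, 3, 0 and 2 in the comparisons between mutants and 2 in the interaction; it lost Igfbp1 in TKO, Socs2 in Cpt2PparaDKO and Ghr in the interaction. Counts per library ran from 54 to 1414 for Socs2, 80 to 4399 for Lepr and 85 to 840 for Irs1, the members with the lowest counts. The cause of the changes between settings was not tested.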
